A study of Mus musculus with 28 samples.

Results

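The genes described here are those that mark ciliated cells of the airway: the transcription factors that make a cell multiciliated and the parts of the motile cilium. They were taken from a written list of 39 names, which stand for 37 distinct genes because Dnai1 and Dnai2 are other symbols of Dnaic1 and Dnaic2. A gene was measured where a probe set of the array is annotated with that gene symbol alone, and the brightest such probe set was used. This gave 35 measured members among 22180 measured genes. Ccdc39 was left out because its probe set is shared with Ttc14, and Dnah12 was not analysed here.

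The study profiled whole lungs of mice at postnatal day 0 on 28 one-colour expression arrays, each made from 1 newborn. Lungs came from Control mice (3 arrays), from mice lacking HRas (HRas-KO, 3 arrays), NRas (NRas-KO, 3 arrays) or both proteins (DKO, 5 arrays). The same genotypes were also taken from pregnancies in which the mother received 0.5% N-acetylcysteine (NAC), an antioxidant and glutathione precursor: DKO+NAC (4 arrays), NRas-KO+NAC (3 arrays), HRas-KO+NAC (3 arrays) and Control+NAC (4 arrays). The treatment note names 3 samples as treated, whereas the source labels place 14 arrays in the NAC groups, and the source labels were followed. The labels describe the mutants only by these names, so strain, alleles and litters are not given in the sources used here, and NAC-exposed littermates would share 1 treated mother.

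HRas and NRas are small GTPases that pass growth factor signals into the cell. Ciliated cells of the airway differentiate when Notch signalling is low. Multicilin (Mcidas) and cyclin O (Ccno) then drive the making of many centrioles, while Foxj1 and the RFX factors switch on genes of the motile axoneme. The axoneme beats through dynein arms on its microtubule doublets, and radial spokes, the central pair and nexin links control that beating, which moves mucus out of the lung.

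RFX factors bind repeats of a short word, GTTGCC, in the promoters of many ciliary genes, so promoters of the members were searched for it. RefSeq windows of 250 bases before to 50 bases after the gene start (GRCm38.p6) were at hand for 30 of the 35 members. GTTGCC or its reverse complement GGCAAC lay in 21 of these 30 members (70.0%), against 3821 of 27025 genes (14.1%). A looser paired form, GTNNCC followed within 0 to 3 bases by GGNNAC, lay in 7 members (23.3%), against 4.38% of genes. The forkhead word GTAAACA, searched on both strands, lay in 3 members (10%), against 4.05% of genes. Such a match describes letters in the window and is not a measured binding site.

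The words are shown here for members that differed between NAC and untreated lungs, each with 10 bases on either side, read 5′ to 3′ along the gene's strand and with the word in capitals.
Rfx3: tatagcaaccGTTGCCttgtgaatca
Tekt1: ttctaactagGGCAACgttgcgtccg
Drc1: gctttcccttGGCAACggcttgttcc
Hydin: cggttgctgtGGCAACagatggtaac
Spag16: ggggtaactaGGCAACgcgttgccgt
Ccdc153: gagttttccaGTTGCCtggacaacgt
Mlf1: gtttacagagGTTGCCatagcagccg
Spag16 and Tekt1 each hold a further match. That of Spag16 lies in lower case inside its stretch, and that of Tekt1 lies outside its stretch. These stretches are at chr19:28011120-28011145 on the minus strand for Rfx3 and at chr11:72361902-72361927 on the minus strand for Tekt1. On the plus strand, the stretch of Drc1 is at chr5:30281372-30281397, that of Hydin at chr8:110266954-110266979, that of Spag16 at chr1:69826849-69826874, that of Ccdc153 at chr9:44240515-44240540 and that of Mlf1 at chr3:67373982-67374007. Tekt1, Drc1 and Hydin were lower and Rfx3, Spag16, Ccdc153 and Mlf1 higher in the NAC comparisons that called them, so the word was present among members called in either direction. Of 12 members called with NAC, 11 had a window and 8 of these held the word. Dnah9, Rsph9 and Ccdc40, all called lower, held no match, and Armc4 had no window.

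Whole windows are shown for 3 members that hold the paired form, which is in capitals together with GTTGCC or GGCAAC: Rfx2, the member that differed with NAC in every genotype, Rsph9, a radial spoke head protein, and Lrrc23, a radial spoke protein that followed the other members most closely from lung to lung.
Rfx2: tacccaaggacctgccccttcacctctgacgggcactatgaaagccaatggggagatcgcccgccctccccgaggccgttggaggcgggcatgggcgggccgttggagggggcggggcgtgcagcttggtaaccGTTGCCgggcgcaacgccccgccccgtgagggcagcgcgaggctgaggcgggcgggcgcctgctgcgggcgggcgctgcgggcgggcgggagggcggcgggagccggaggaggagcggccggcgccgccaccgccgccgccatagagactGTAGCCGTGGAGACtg
Rsph9: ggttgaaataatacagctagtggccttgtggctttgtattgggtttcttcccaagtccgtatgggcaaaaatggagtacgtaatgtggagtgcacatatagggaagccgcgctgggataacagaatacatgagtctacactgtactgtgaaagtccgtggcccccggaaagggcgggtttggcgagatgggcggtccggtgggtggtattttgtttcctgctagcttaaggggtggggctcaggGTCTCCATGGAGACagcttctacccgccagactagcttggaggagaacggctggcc
Lrrc23: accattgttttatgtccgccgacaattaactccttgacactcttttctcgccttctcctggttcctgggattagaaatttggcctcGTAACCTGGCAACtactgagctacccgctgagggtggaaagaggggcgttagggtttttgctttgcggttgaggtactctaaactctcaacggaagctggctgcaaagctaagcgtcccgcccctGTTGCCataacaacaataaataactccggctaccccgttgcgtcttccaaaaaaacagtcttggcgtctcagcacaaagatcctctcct
The windows are on the minus strand at chr17:56830959-56831258 for Rfx2, chr17:46144151-46144450 for Rsph9 and chr6:124779678-124779977 for Lrrc23. In Rfx2, GTTGCC began 116 bases before the gene start, and in Rsph9 the paired form began 6 bases before it.

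Values are the authors' log2 expression values, so 1 unit is a doubling. Over all arrays the median value of an array lay between 5.25 and 5.41, and the correlation between any 2 arrays was 0.963 to 0.993. Ager, a marker of alveolar type 1 cells, was between 11.48 and 11.90. Skeletal muscle genes stood high on 5 arrays: DKO replicates 1, 3 and 5, NRas-KO replicate 2 and Control replicate 3. Nras was 8.08 on the array labelled DKO+NAC replicate 4, against 7.40 to 7.80 on the other arrays labelled as lacking it and at least 8.07 on those carrying it. That array goes against its label. Without it, 10 members in place of 12 were called with NAC in at least 1 genotype, and the counts of DKO+NAC against DKO and against Control+NAC are given with and without it. Differences were tested with limma on all 28 arrays and all 22180 genes, and a gene is called changed at a Benjamini-Hochberg adjusted p below 0.05. The p-values rest on a spread between newborns that is pooled over all groups, so they do not measure the spread of a single group. They take newborns as independent, also where the animal code in the sample titles starts alike. They do not measure the spread between mothers.

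The level of the ciliated genes as a list differed from lung to lung inside a group, most widely in DKO. To follow the list on each array, the mean over the 35 members of the deviation from each gene's own mean was taken, on the log2 scale. It was 0.01, 0.05 and 0.08 in the Control lungs, -0.17, -0.08 and 0.05 in HRas-KO, and 0.02, 0.10 and 0.20 in NRas-KO. In DKO it was -0.25, 0.19, -0.27, 0.15 and 0.00 for replicates 1 to 5. The DKO lungs thus held both the lowest and nearly the highest values of the study, and their range covered that of the Control lungs. In bulk tissue, fewer ciliated cells and less RNA per ciliated cell cannot be told apart.

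With NAC the list mean was 0.08, 0.06, 0.08 and 0.12 in Control+NAC and 0.00, 0.05 and 0.02 in HRas-KO+NAC. It was 0.05, -0.24 and -0.03 in NRas-KO+NAC and -0.16, -0.05, 0.05 and -0.12 in DKO+NAC. All 4 Control+NAC lungs lay above all 4 DKO+NAC lungs. The group means ± SD were 0.05 ± 0.03 in Control (n = 3), 0.08 ± 0.03 in Control+NAC (n = 4), -0.04 ± 0.21 in DKO (n = 5) and -0.07 ± 0.09 in DKO+NAC (n = 4).

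**Figure D1:**
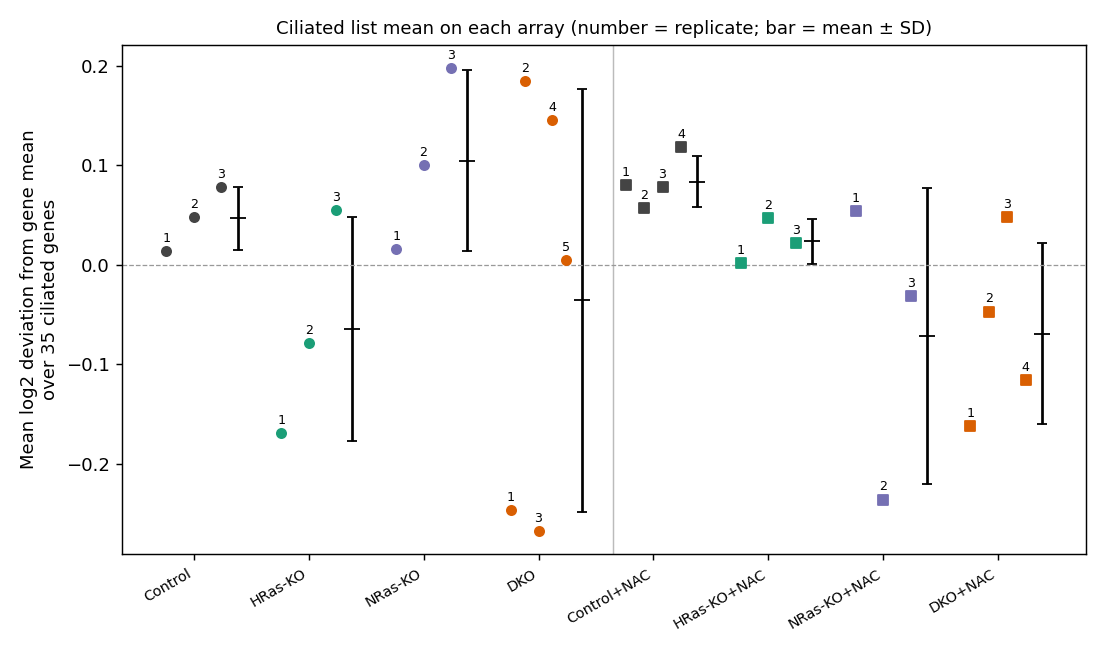
Mean log2 deviation of the 35 ciliated genes from their own means on each of the 28 arrays (y axis), by group (x axis), with replicate numbers beside the points and bars for the group mean ± SD. DKO replicates 1 and 3 lie at -0.25 and -0.27 and replicates 2 and 4 at 0.19 and 0.15, a wider spread than the 0.01 to 0.08 of the Control lungs.

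In the untreated DKO group, 25 of the 35 members were lower in replicates 1 and 3 than in each of replicates 2, 4 and 5, an order found for 15.4% of all genes. Replicates 1 and 3 were picked because the list mean of the same members was lowest there, so this count is a description with no test. Lrrc23 was 5.92 and 5.57 in those lungs and 6.91, 6.58 and 6.49 in the others. Fam183b, a marker of ciliated cells, was 5.53 and 5.10 there against 6.10, 6.64 and 6.28. Rsph1, of the radial spoke head, was 6.05 and 5.90 against 6.89, 6.54 and 6.50. Rsph4a, also of the spoke head, was 6.13 and 6.21 against 7.12, 7.19 and 6.53, and Zmynd10, which assembles dynein arms, was 5.39 and 5.43 against 6.10, 6.30 and 6.23. Hydin, a very large protein of the central pair, was 6.18 and 6.05 against 7.04, 7.33 and 7.07. Sntn (sentan), a protein of the cilium tip, was 5.65 and 5.82 against 6.81, 6.79 and 6.09. Among the other 10 members were Foxj1, Rfx2, Dnah11 and Ccdc40. Foxj1 was 6.90 and 6.68 in replicates 1 and 3 and 6.84, 6.55 and 6.56 in the others. Other measures also differed among the DKO lungs. The list mean of skeletal muscle genes was 1.34 and 0.42 in replicates 1 and 3. It was 0.85 in replicate 5 and -0.11 and -0.19 in replicates 2 and 4, so it did not follow the split. The list mean of 84 small RNA genes did, at 0.42 and 0.85 in replicates 1 and 3 against 0.19, 0.24 and 0.21. That of alveolar type 2 genes was -0.22 and -0.20 against -0.05, 0.01 and -0.09. Xist, an RNA of female cells, was 10.36 and 9.92 in replicates 1 and 3 against 3.95, 4.33 and 4.06. The part of these measures in the split was not tested.

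**Figure D2:**
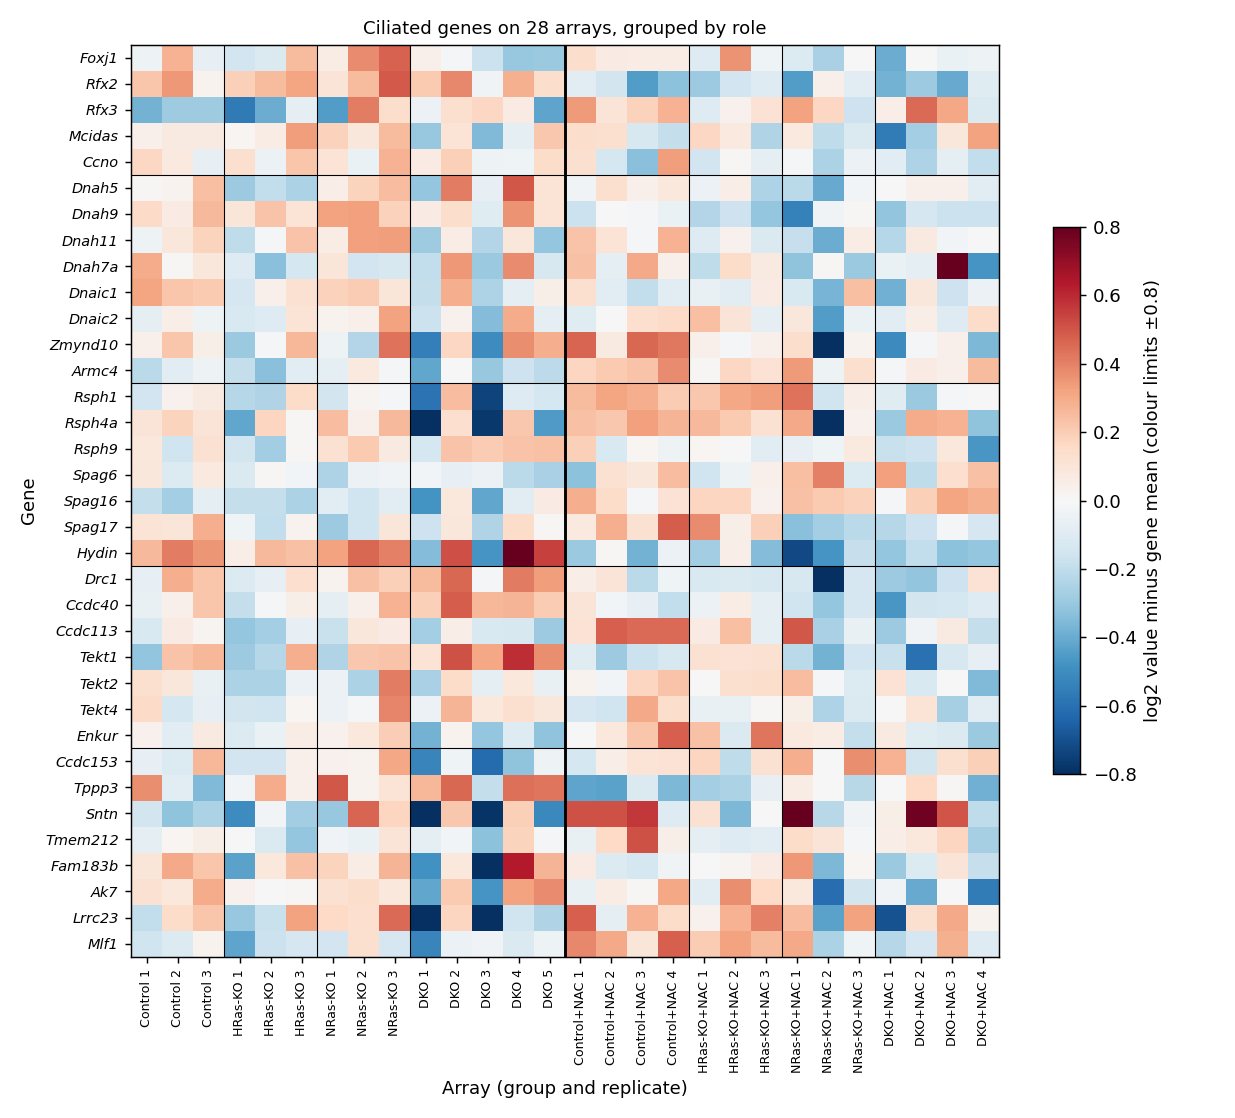
Log2 value minus the gene's mean over 28 arrays for each of the 35 ciliated genes (y axis, ordered by role) on each array (x axis, untreated left of the thick line and NAC right of it). Blue runs through most genes in DKO 1 and DKO 3, while Rfx2 is red in most untreated lungs and blue in all NAC lungs but 1.

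Within groups, the members' deviations were compared with the mean deviation of the other 34. The median correlation over members was 0.53 across the 28 arrays, which share the groups' own spread, and 0.47 without the 2 arrays farthest from the middle, DKO replicates 3 and 2. Lrrc23 followed the rest most closely (r = 0.85), then Fam183b, Rsph1 and Zmynd10 (each 0.84) and Rsph4a (0.83). In contrast, Foxj1 (0.23), Rfx2 (0.13) and Dnah9 (0.12), an outer arm dynein heavy chain, followed it little, and Spag6, of the central pair, ran against it (-0.23). The median of all other genes was -0.03. A correlation above 0.5 was found for 21 members and for 1773 other genes (8.01%). Spag6, Spag17 and Tekt2 each have a second, dimmer probe set that did not follow the one used (r = -0.02, 0.14 and -0.45 over all arrays).

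The genes outside the list with the most similar pattern were Wif1 (r = 0.94), which codes for a secreted Wnt inhibitor, Enpep and Oxct1 (each 0.93), Lrrc17 (0.93) and Aldh7a1 (0.92). Bex2 (0.92) and Pcca, Acoxl and Plcb1 (each 0.91) came next, and Dnali1, an axonemal dynein light chain, was last of these 10 (0.91). All 10 lay above the closest member, Lrrc23 (0.85). A separate list of 69 further axonemal genes correlated with the members at r = 0.95, and at 0.93 without those 2 arrays. Genes of club cells, the secretory neighbours of ciliated cells, correlated at 0.48, goblet cell genes at -0.52 and skeletal muscle genes at -0.44. Without those 2 arrays these were 0.32, -0.49 and -0.41. Xist correlated at -0.60 and heart muscle genes at -0.44 (-0.55 and -0.47 without those 2 arrays). Genes of multiciliated differentiation correlated at 0.51 and those of intraflagellar transport and the primary cilium at 0.48 (0.62 and 0.66 without them).

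**Figure D3:**
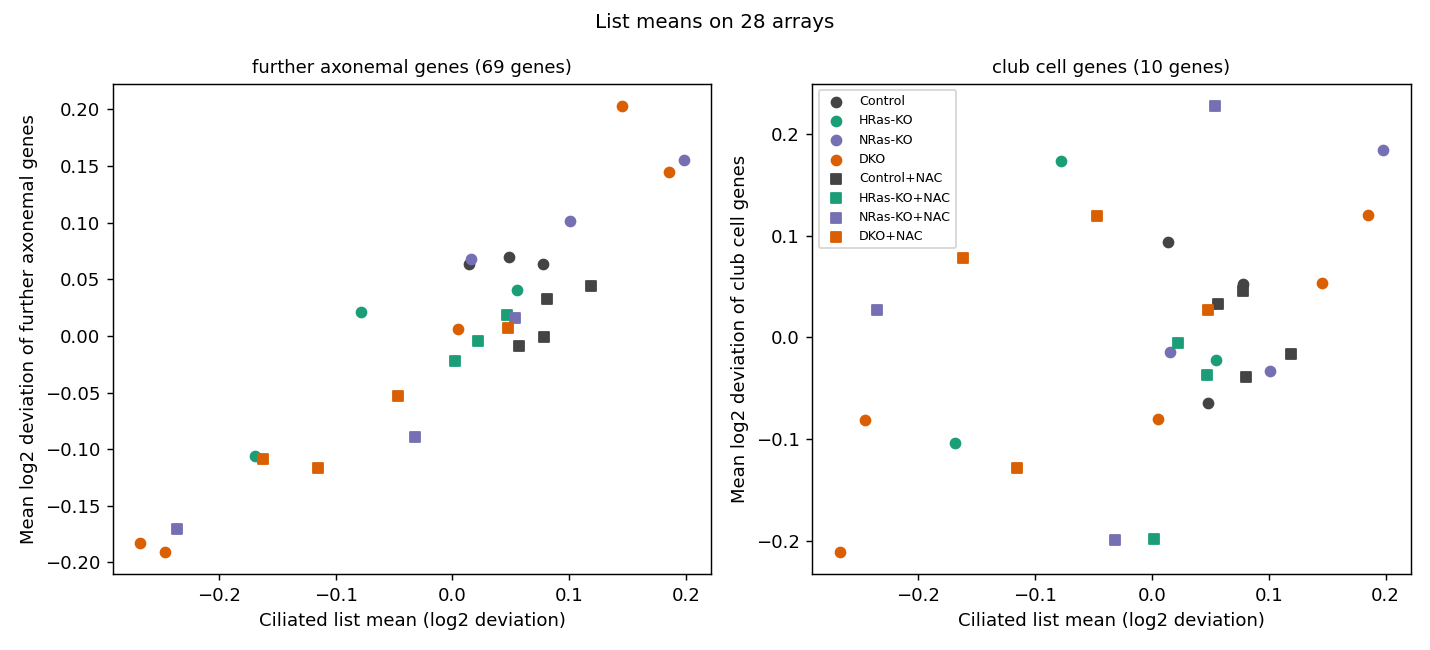
Mean log2 deviation of 69 further axonemal genes (left, y axis) and of 10 club cell genes (right, y axis) against that of the 35 ciliated genes (x axis) on each of the 28 arrays, coloured by genotype, with squares for NAC. The axonemal genes rise along with the ciliated genes, while the club cell genes scatter.

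Loss of HRas or NRas alone, or of both, gave no called change of a ciliated gene against Control lungs. Untreated DKO lungs share no start of the animal code in the sample titles with the other untreated lungs. DKO differences from those lungs and any batch that the code marks cannot be told apart. In DKO against Control, 0 of 35 members were called, where 3.83% of all genes were called. Of the members, 25 had an estimate below 0, with a median of -0.11 against 0.02 over all genes, of which 10015 of 22180 were below 0. Leaving out 1 array at a time gave medians from -0.16 to -0.03. Among the members, 5 had an unadjusted p below 0.05, where 15.7% of all genes did. Members with the smallest p moved in opposite directions. Ccdc153, a marker of ciliated cells, was 7.79, 7.75 and 8.12 in Control and 7.33, 7.82, 7.24, 7.54 and 7.82 in DKO, a log2 difference of -0.34 ± 0.14 (SE; limma, adjusted p = 0.19). Dnaic1, an outer arm intermediate chain, was 5.85, 5.75 and 5.75 in Control and 5.34, 5.82, 5.29, 5.45 and 5.58 in DKO (-0.29, limma, adjusted p = 0.25). Tekt1, a tektin that lines the microtubule doublets, was 6.24, 6.79 and 6.83 in Control and 6.67, 7.07, 6.87, 7.15 and 6.93 in DKO (0.32, limma, adjusted p = 0.29). The 2 groups' ranges overlapped for every member, while 6.19% of all genes lay wholly higher in DKO and 4.03% wholly lower.

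In HRas-KO lungs the estimates leaned lower, without a call. limma called 0 members (0.0% of all genes were called), and 1 member, Dnah5, had an unadjusted p below 0.05, as did 190 genes in all (0.857%). Of 35 members, 31 had an estimate below 0, as did 10431 of 22180 genes. The median over members was -0.12, and -0.18 to -0.05 when 1 array was left out. Dnah5, an outer arm heavy chain, was 6.61, 6.63 and 6.84 in Control and 6.31, 6.40 and 6.35 in HRas-KO (-0.34, limma, adjusted p = 1.00). Spag17, a central pair protein, was 6.30, 6.29 and 6.48 in Control and 6.16, 6.0 and 6.22 in HRas-KO (-0.23, limma, adjusted p = 1.00). Dnaic1 was 5.40, 5.57 and 5.66 in HRas-KO (-0.24, limma, adjusted p = 1.00). In all, 6 members had every HRas-KO lung below every Control lung: Dnah5, Dnah7a, Dnaic1, Spag17, Hydin and Ak7. Such a separation was found for 3.08% of all genes.

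In NRas-KO lungs, limma again called 0 members (0.0% of all genes), with 26 estimates above 0, as had 11608 of 22180 genes. The median over members was 0.06, and 0.00 to 0.09 when 1 array was left out. Spag17 was the 1 member with an unadjusted p below 0.05, as were 231 genes in all (1.04%). Its values were 5.90, 6.03 and 6.29 in NRas-KO, a difference of -0.28 from Control (limma, adjusted p = 1.00). Rfx3 was 7.07, 7.93 and 7.66 against 7.14, 7.24 and 7.24 in Control (0.35), and Foxj1 was 6.91, 7.23 and 7.33 against 6.82, 7.13 and 6.79 (0.24). The ranges of Rfx3 and Foxj1 overlapped between these groups.

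Foxj1, the factor that switches on motile cilium genes, was the 1 member called between untreated genotypes. It was 6.91, 7.23 and 7.33 in NRas-KO and 6.90, 6.84, 6.68, 6.55 and 6.56 in DKO, so every DKO lung lay below every NRas-KO lung. The log2 difference was -0.45 ± 0.13 (SE; limma, adjusted p = 0.037), where 4.95% of all genes were called and 1.75% were called lower. The call held in 11 of 22 alternatives, was lost when the muscle-rich arrays were left out, and was lost without NRas-KO replicate 2 or 3 or without DKO replicate 3, 4 or 5. DKO and NRas-KO lungs share no start of the animal code, so this difference and any batch that the code marks cannot be told apart. Dnah11, an outer arm heavy chain, followed at -0.38 (limma, adjusted p = 0.066). Of 35 members, 28 had an estimate below 0, with a median of -0.10.

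Against HRas-KO, DKO lungs had 0 called members (5.63% of all genes were called) and 5 with an unadjusted p below 0.05, where 18.2% of all genes did. The smallest p were those of Ccdc40 (0.33, limma, adjusted p = 0.053), which with Ccdc39 sets the spacing of the axonemal repeat, Tekt1 (0.45, limma, adjusted p = 0.077) and Dnah5 (0.38, limma, adjusted p = 0.088). All 3 were higher in DKO by their estimates. Ccdc40 was 6.31, 6.49 and 6.55 in HRas-KO and 6.69, 6.98, 6.76, 6.77 and 6.70 in DKO, with no overlap. The DKO difference beyond the sum of the single knockouts was called for 0 members (0.225% of all genes), and 1 member had an unadjusted p below 0.05 (9.57% of all genes). The estimates were 0.32 for Ccdc40, -0.39 for Foxj1 and 0.44 for Tekt1.

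NAC during pregnancy was accompanied by called changes in some ciliated genes and by none in most. Over the 4 genotypes, 12 of 35 members were called in at least 1, where 24.8% of all genes were, and 23 members were called in none. Rfx2 was called lower in all 4 genotypes, as were 1.36% of all genes, and Dnah9 in 3. The DKO call of Dnah9 was lost without the array labelled DKO+NAC replicate 4. Estimates were higher in all 4 genotypes for 9 members, lower in all 4 for 8 and mixed for 18. NAC and untreated lungs share no start of the animal code in the sample titles, so NAC and any batch that the code marks cannot be told apart.

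Among the transcription factors, Rfx2 was 7.13, 7.27 and 6.95 in Control and 6.82, 6.77, 6.47 and 6.59 in Control+NAC. It was 7.11, 7.17 and 7.23 in HRas-KO and 6.63, 6.76 and 6.81 in HRas-KO+NAC. In NRas-KO it was 7.02, 7.17 and 7.41, and 6.47, 6.96 and 6.83 with NAC. In each genotype every NAC lung lay below every untreated lung. In DKO the values were 7.12, 7.30, 6.89, 7.20 and 7.05, and 6.54, 6.63, 6.51 and 6.82 with NAC, again with no overlap. The differences were -0.45 ± 0.12, -0.44 ± 0.13, -0.45 ± 0.13 and -0.49 ± 0.11 (SE; limma, adjusted p = 0.015, 0.031, 0.040 and 0.0036, for Control, HRas-KO, NRas-KO and DKO). The call held in 22 of 23 alternatives in DKO, 17 of 21 in Control, 13 of 20 in HRas-KO and 11 of 20 in NRas-KO. A required difference beyond 1.5-fold ended it in each genotype. Under that minimum the only calls of members with NAC were Hydin in NRas-KO and Tekt1 in DKO.

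Rfx3 moved the other way in Control lungs. It was 7.14, 7.24 and 7.24 untreated and 7.86, 7.62, 7.71 and 7.80 with NAC, with no overlap (0.54 ± 0.17, SE; limma, adjusted p = 0.033). The call held in 14 of 21 alternatives and was lost without any 1 of the Control lungs or without Control+NAC replicate 1, 3 or 4. The estimates in HRas-KO, NRas-KO and DKO were 0.36, 0.07 and 0.20, none called. Foxj1 was 7.0, 6.92, 6.92 and 6.92 in Control+NAC, within the range of Control. It was 6.74, 6.59 and 6.85 in NRas-KO+NAC, below all 3 NRas-KO lungs, without a call (-0.43, limma, adjusted p = 0.071). Foxj1 was 6.75, 7.22 and 6.82 in HRas-KO+NAC and 6.46, 6.85, 6.80 and 6.81 in DKO+NAC, both overlapping the untreated lungs of the same genotype. Mcidas ranged from 5.60 to 6.50 and Ccno from 4.42 to 5.08 over the 28 arrays, and neither was called in any comparison.

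**Figure D4:**
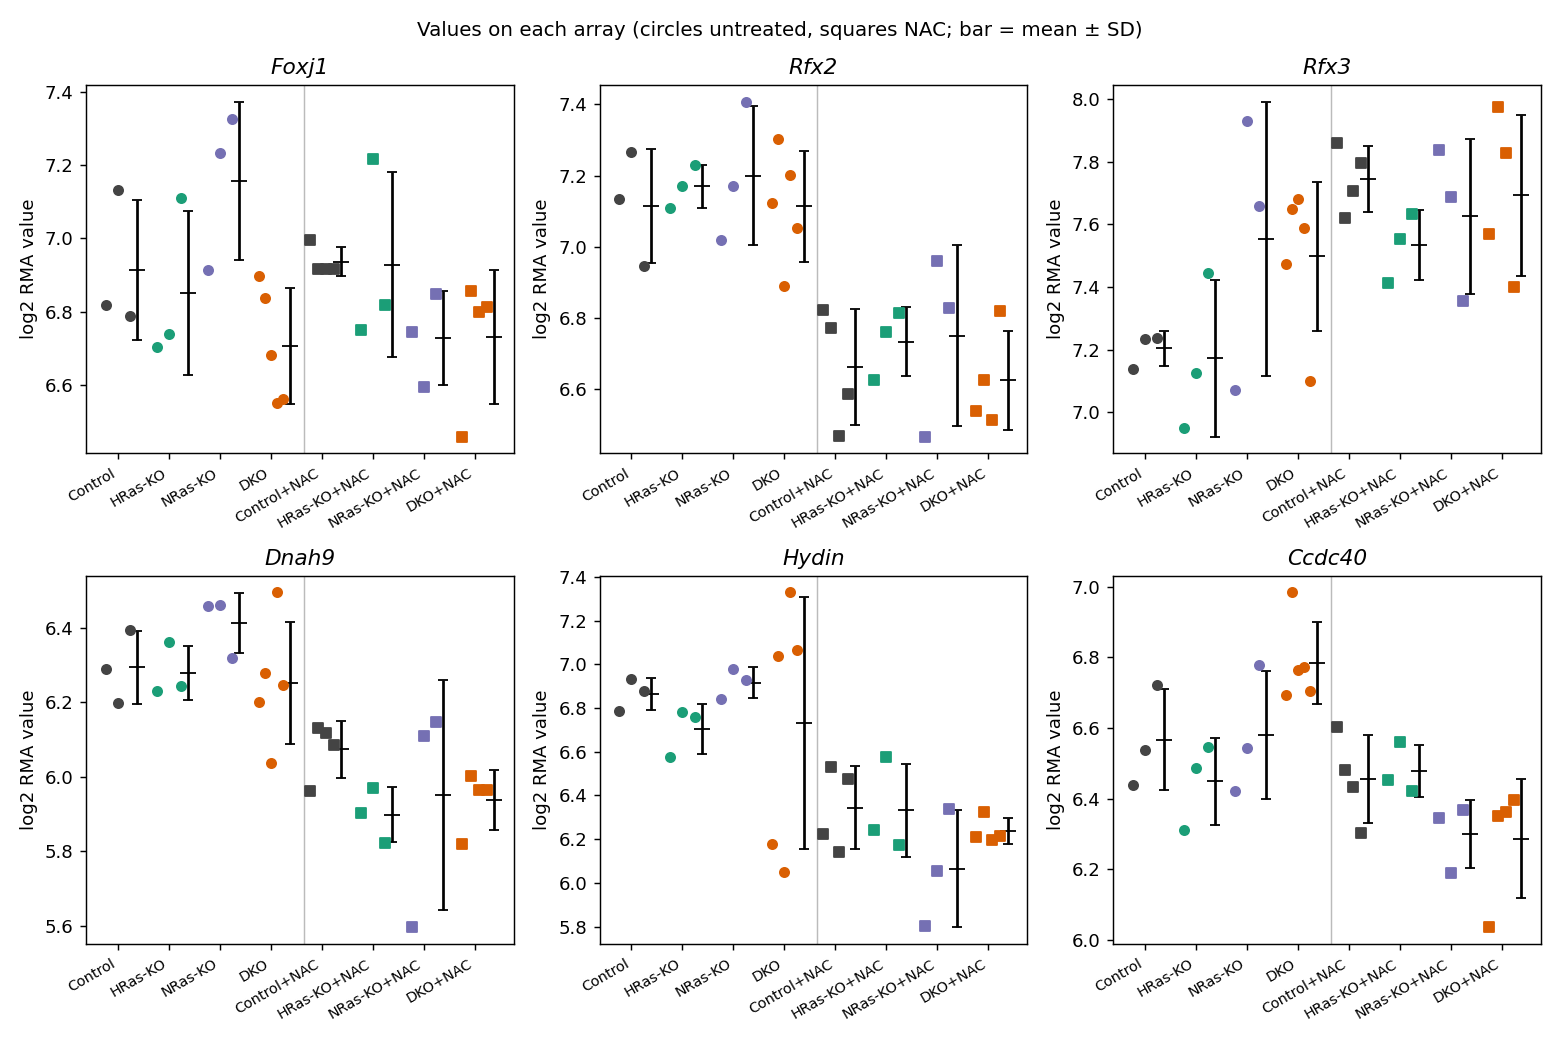
Log2 values of Foxj1, Rfx2, Rfx3, Dnah9, Hydin and Ccdc40 on each array (y axes) by group (x axes). Rfx2 and Dnah9 are lower in NAC lungs than in untreated lungs of each genotype without overlap, and Hydin in untreated DKO lungs spans 6.05 to 7.33.

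Among the dynein arm genes, Dnah9 was 6.29, 6.20 and 6.39 in Control and 5.96, 6.13, 6.12 and 6.08 in Control+NAC (-0.22, not called). It was 6.23, 6.36 and 6.24 in HRas-KO and 5.90, 5.97 and 5.82 with NAC (-0.38 ± 0.12, SE; limma, adjusted p = 0.036). In NRas-KO it was 6.46, 6.46 and 6.32, and 5.60, 6.11 and 6.15 with NAC (-0.46 ± 0.12, SE; limma, adjusted p = 0.018). NAC and untreated values did not overlap in any of these genotypes. In DKO it was 6.20, 6.28, 6.04, 6.49 and 6.25, and 5.82, 6.0, 5.96 and 5.96 with NAC, also without overlap (-0.31 ± 0.10, SE; limma, adjusted p = 0.034). The call held in 11 of 20, 14 of 20 and 14 of 23 alternatives for HRas-KO, NRas-KO and DKO, and single arrays ended it in each. In DKO these included the array labelled DKO+NAC replicate 4, which ended the call when left out. Xist class (high or low) in the fit also ended it in HRas-KO and DKO.

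Armc4, which docks the outer arms, was higher with NAC. It was 4.60, 4.72 and 4.77 in Control and 4.99, 5.03, 5.05 and 5.19 in Control+NAC (0.36 ± 0.10, SE; limma, adjusted p = 0.019). In DKO it was 4.40, 4.82, 4.51, 4.65 and 4.61, and 4.80, 4.88, 4.85 and 5.07 with NAC (0.30 ± 0.09, SE; limma, adjusted p = 0.026). The ranges overlapped in DKO and not in Control. The DKO call was lost without DKO replicate 1 or 3, without DKO+NAC replicate 4 or without the muscle-rich arrays. The Control call was lost without Control replicate 1 or 2 or Control+NAC replicate 4. The remaining arm genes were not called with NAC in any genotype: Dnah5 ranged from 6.20 to 7.10 over all arrays, Dnah11 from 6.20 to 6.94, Dnah7a from 3.30 to 4.71, Dnaic1 from 5.15 to 5.85, Dnaic2 from 5.55 to 6.32 and Zmynd10 from 4.93 to 6.40.

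Among the radial spoke and central pair genes, Hydin had the largest called difference of the list. It was 6.84, 6.98 and 6.93 in NRas-KO and 5.80, 6.05 and 6.34 in NRas-KO+NAC, with no overlap (-0.85 ± 0.22, SE; limma, adjusted p = 0.019). The estimates in Control, HRas-KO and DKO were -0.52, -0.37 and -0.49, none called. Hydin has a second, dimmer probe set whose values did not follow the first (r = -0.16), and averaging both ended the call, as did leaving out NRas-KO replicate 2 or 3 or NRas-KO+NAC replicate 1 or 2. Spag16, of the central pair, was 4.85, 5.42, 4.91, 5.24 and 5.40 in DKO and 5.32, 5.52, 5.65 and 5.61 in DKO+NAC (0.36 ± 0.10, SE; limma, adjusted p = 0.019). Its estimates in the other genotypes were close to this, 0.31 in Control, 0.34 in HRas-KO and 0.32 in NRas-KO, none called. The DKO ranges overlapped, and the call was lost without DKO replicate 1 or 3, DKO+NAC replicate 3 or 4, or the muscle-rich arrays. Rsph9 was 6.09, 6.46, 6.44, 6.46 and 6.47 in DKO and 6.05, 6.07, 6.32 and 5.77 with NAC (-0.33 ± 0.10, SE; limma, adjusted p = 0.029). This call held in 10 of 23 alternatives and was lost without DKO replicate 2, 3, 4 or 5 and without DKO+NAC replicate 1, 2 or 4. Xist class in the fit also ended it. Rsph1 ranged from 5.90 to 7.08 over all arrays, Rsph4a from 6.08 to 7.31, Spag17 from 5.85 to 6.67 and Spag6 from 4.14 to 4.88, and none was called with NAC.

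Among the link, ruler and tektin genes, 3 of 7 were called lower with NAC in DKO lungs and 1 of those also in NRas-KO, where 6.46% and 3.56% of all genes were called lower. Ccdc40 was 6.69, 6.98, 6.76, 6.77 and 6.70 in DKO and 6.04, 6.35, 6.36 and 6.40 in DKO+NAC, with no overlap (-0.50 ± 0.09, SE; limma, adjusted p = 0.00094). Tekt1 was 6.67, 7.07, 6.87, 7.15 and 6.93 in DKO and 6.38, 5.97, 6.44 and 6.50 in DKO+NAC, with no overlap (-0.62 ± 0.14, SE; limma, adjusted p = 0.0036). The Tekt1 call held in all 23 alternatives, and the Ccdc40 call in 22, being lost beyond 1.5-fold. The estimates for Ccdc40 in Control, HRas-KO and NRas-KO were -0.11, 0.03 and -0.28, and those for Tekt1 were -0.23, 0.19 and -0.32, none called.

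Drc1, a core protein of the nexin link, was 6.47, 6.68, 6.21, 6.64 and 6.55 in DKO and 5.93, 5.90, 6.05 and 6.33 in DKO+NAC (-0.46 ± 0.13, SE; limma, adjusted p = 0.024). In NRas-KO it was 6.25, 6.45 and 6.41, and 6.09, 5.29 and 6.09 with NAC (-0.55 ± 0.16, SE; limma, adjusted p = 0.041). The NRas-KO ranges did not overlap and the DKO ranges did. The NRas-KO call was lost without any 1 of the NRas-KO lungs, without NRas-KO+NAC replicate 2 or without the muscle-rich arrays. The DKO call was lost without DKO replicate 2 or 4, without DKO+NAC replicate 1, 2 or 3 and with Xist class in the fit. Ccdc113 ranged from 5.10 to 5.91 over all arrays, Tekt2 from 6.0 to 6.76, Tekt4 from 5.48 to 6.14 and Enkur from 4.90 to 5.75, none called with NAC.

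Of the remaining markers of ciliated cells, Ccdc153 was 8.13, 7.71, 7.98 and 8.05 in DKO+NAC, higher than in DKO (0.42 ± 0.13, SE; limma, adjusted p = 0.027). Its estimate was 0.00 in Control, and the DKO call was lost without DKO replicate 1 or 3 and without DKO+NAC replicate 1, 3 or 4. Mlf1 was 5.10, 5.35 and 5.39 in HRas-KO and 5.73, 5.84 and 5.77 in HRas-KO+NAC, with no overlap (0.50 ± 0.15, SE; limma, adjusted p = 0.027). This call was lost without HRas-KO replicate 1 or 2, without any 1 of the NAC lungs or with Xist class in the fit. The Mlf1 estimate was 0.40 in Control (limma, adjusted p = 0.056). Sntn had a larger estimate, 0.61 in Control and 0.65 in DKO, but a wide spread from 5.65 to 7.52, and was not called. Tppp3, a microtubule-associated protein, had estimates of -0.31, -0.30, -0.26 and -0.34 in Control, HRas-KO, NRas-KO and DKO and ranged from 8.18 to 9.11, without a call. Tmem212 ranged from 7.07 to 7.90, Fam183b from 5.10 to 6.64, Ak7 from 6.72 to 7.71 and Lrrc23 from 5.57 to 7.21.

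**Figure D5:**
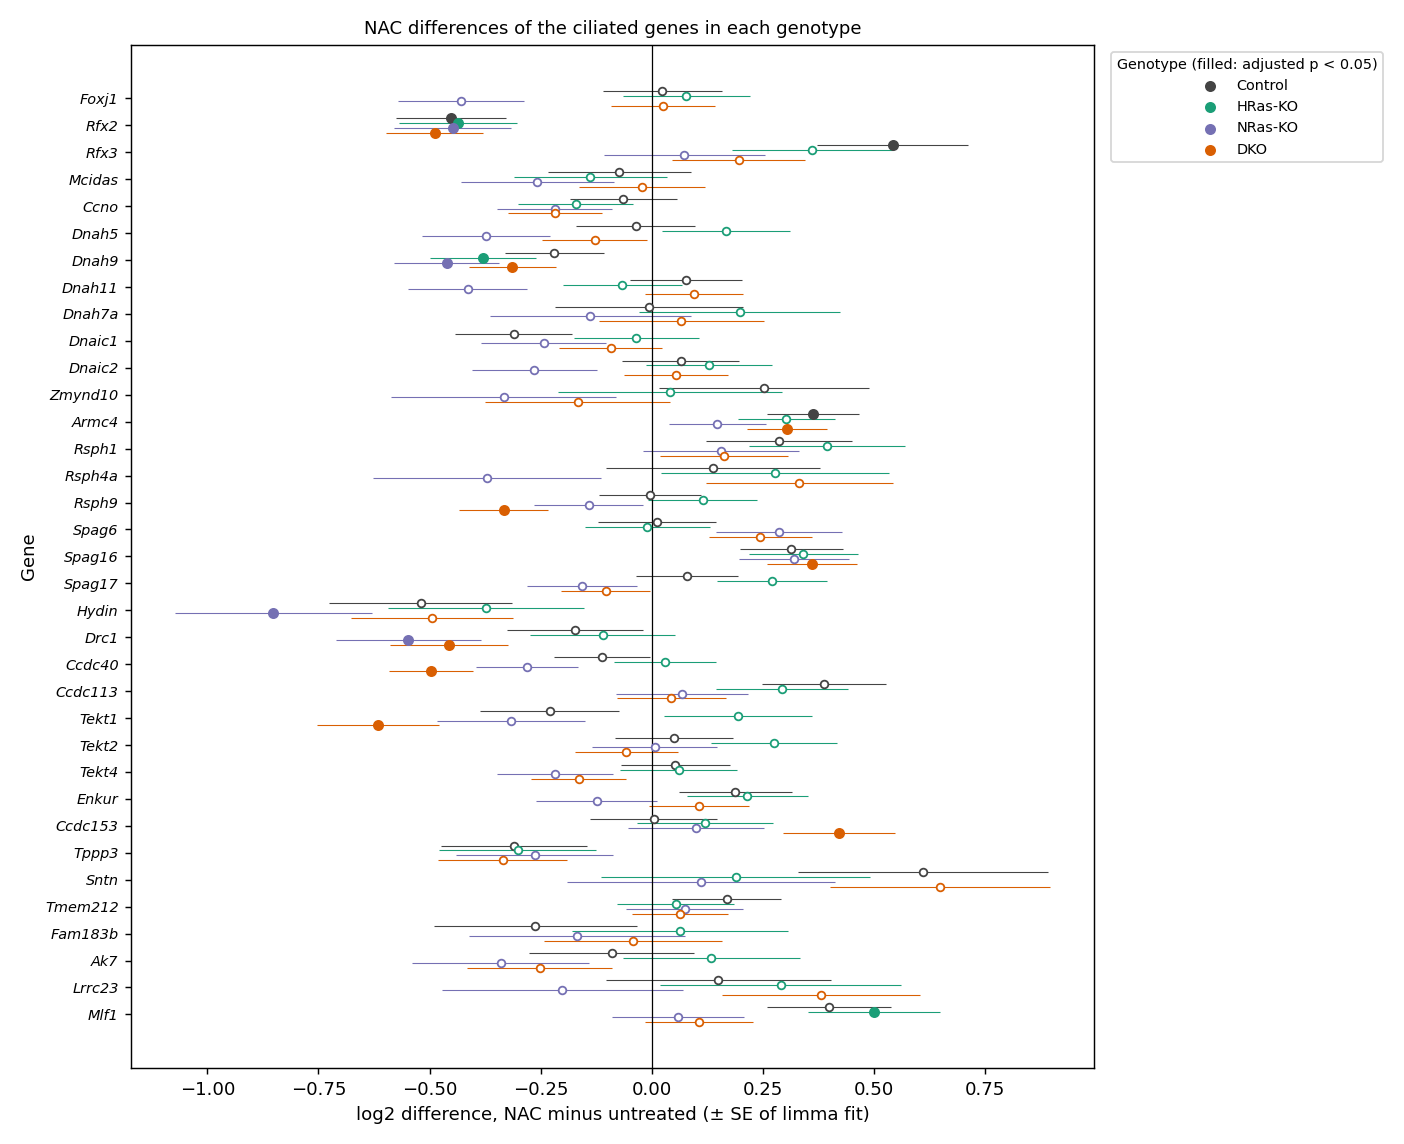
Log2 difference, NAC minus untreated (x axis, bars ± SE of the limma fit), for each of the 35 ciliated genes (y axis) in the 4 genotypes, filled where the adjusted p is below 0.05. Rfx2 is filled in all 4 genotypes, between -0.49 and -0.44.

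Counted by comparison, Control+NAC against Control had 2 members higher and 1 lower, where 7.86% and 5.68% of all genes were called in these directions (13.5% in all). HRas-KO+NAC against HRas-KO had 1 higher and 2 lower (6.73% and 5.1% of all genes, 11.8% in all). NRas-KO+NAC against NRas-KO had 0 higher and 4 lower (2.86% and 3.56% of all genes, 6.42% in all), with a median over members of -0.22 against 0.03 over all genes. Leaving out 1 array at a time gave medians over members from -0.28 to -0.13 in this comparison. DKO+NAC against DKO had 3 higher and 6 lower (5.74% and 6.46% of all genes, 12.2% in all), with a median of -0.02. Members called were thus 3 of 35 in Control and in HRas-KO, 4 of 35 in NRas-KO and 9 of 35 in DKO. Without the array labelled DKO+NAC replicate 4, 5 members were called in DKO, 1 higher and 4 lower. All 4 DKO+NAC lungs but 2 of 5 DKO lungs were high in Xist, and with this class in the fit 7 members were called, 4 higher and 3 lower. The shares of all genes given above are those of the fit with all arrays and no Xist class. Wholly separate ranges, called or not, were seen for 8 members higher and 5 lower in Control (15.4% and 10.1% of all genes) and for 6 higher and 4 lower in HRas-KO (18.8% and 14.9%). They were seen for 1 higher and 8 lower in NRas-KO (13.1% and 10.5%) and for 0 higher and 5 lower in DKO (4.97% and 5.32%). Whether the NAC difference itself differed between DKO and Control was called for 0 members (0.388% of all genes), and 3 had an unadjusted p below 0.05 (13.0% of all genes). These were Ccdc40 (-0.38, limma, adjusted p = 0.22), Ccdc153 (0.42, limma, adjusted p = 0.35) and Rsph9 (-0.33, limma, adjusted p = 0.36).

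Between genotypes within the NAC lungs, limma called 0 members and 0.0% of all genes in each of the 3 comparisons. In DKO+NAC against Control+NAC, 6 members had an unadjusted p below 0.05, where 9.54% of all genes did, and 31 of 35 estimates were below 0 (median -0.14). All 4 DKO+NAC lungs but 2 of 4 Control+NAC lungs were high in Xist. With Xist class in the fit, again no member was called, and the part of this class in the lower estimates was not tested. Wholly lower ranges in DKO+NAC were seen for 5 members and 2.34% of all genes. Without DKO+NAC replicate 4, 0 members were called, 7 had an unadjusted p below 0.05, 28 estimates were below 0 (median -0.13) and 6 members had wholly lower ranges. The shares of all genes given here are those with all 4 DKO+NAC arrays, and ranges of any gene separate more easily with fewer arrays. Ccdc113 was 5.53, 5.89, 5.87 and 5.87 in Control+NAC and 5.12, 5.38, 5.48 and 5.22 in DKO+NAC, with no overlap (-0.49, limma, adjusted p = 0.23). Spag17 was 6.27, 6.48, 6.31 and 6.67 in Control+NAC and 5.96, 6.03, 6.17 and 6.06 in DKO+NAC, also with no overlap (-0.38, limma, adjusted p = 0.25). Mlf1 was 5.91, 5.83, 5.62 and 6.0 against 5.29, 5.39, 5.81 and 5.42 (-0.36, limma, adjusted p = 0.36). The ranges of Mlf1 overlapped through DKO+NAC replicate 3.

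In NRas-KO+NAC, 29 of 35 estimates against Control+NAC were below 0 (median -0.14), and 6 members had an unadjusted p below 0.05 (10.5% of all genes). Spag17 was 5.85, 5.92 and 5.97, below every Control+NAC lung (-0.52 ± 0.12, SE; limma, adjusted p = 0.12). Zmynd10 was 6.08, 4.93 and 5.96 against 6.40, 6.01, 6.39 and 6.35 (-0.63, limma, adjusted p = 0.35), its low value being that of replicate 2. Dnah11 was 6.42, 6.20 and 6.66 against 6.83, 6.71, 6.59 and 6.88 (-0.33, limma, adjusted p = 0.37). NRas-KO+NAC replicate 2 had the lowest value of all 28 arrays for 7 members, Dnah5, Dnah11, Dnaic2, Zmynd10, Rsph4a, Drc1 and Ak7. In HRas-KO+NAC, 1 member had an unadjusted p below 0.05 (6.35% of all genes): Ccdc113, at 5.48, 5.65 and 5.34 (-0.30, limma, adjusted p = 0.77). Tmem212 (-0.25) and Tekt1 (0.29) followed.

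Further genes of the motile axoneme, 69 in all, were called with NAC 3 times higher and 7 lower in Control, 2 higher and 4 lower in HRas-KO, 0 higher and 11 lower in NRas-KO and 0 higher and 5 lower in DKO. These were 14.5%, 8.7%, 15.9% and 7.25% of the list, against the 13.5%, 11.8%, 6.42% and 12.2% of all genes given above. The axonemal dynein heavy chain Dnah10 was lower in all 4 genotypes, by estimates of -0.50, -0.56, -0.87 and -0.50 (limma, adjusted p = 0.014, 0.011, 0.00070 and 0.0060). Dnah2, another heavy chain, was also called lower in all 4 genotypes. Of the members, Dnah9 was called lower in 3 genotypes, in DKO only with the array labelled DKO+NAC replicate 4 included. The estimates of Dnah5 and Dnah11 in NRas-KO were -0.37 and -0.41, not called. In Control, HRas-KO and DKO they were -0.04, 0.17 and -0.13 for Dnah5 and 0.08, -0.07 and 0.09 for Dnah11, none called. Differences between these genes were not tested. Of 24 genes of multiciliated differentiation, Rfx1 was called lower in all 4 genotypes, by estimates of -0.42, -0.66, -0.46 and -0.35. The list as a whole did not follow Rfx1. Its mean deviation, untreated and with NAC, was -0.05 and 0.09 in Control and -0.06 and 0.10 in HRas-KO. It was 0.04 and -0.03 in NRas-KO and -0.05 and -0.02 in DKO.

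Of 38 genes of intraflagellar transport and the primary cilium, which builds and serves cilia of any kind, 9 were called higher and 2 lower with NAC in Control, 9 higher in HRas-KO, 1 higher in NRas-KO and 4 higher in DKO. These were 28.9%, 23.7%, 2.63% and 10.5% of the list, against the same shares of all genes. Ift57 was higher in Control (0.74) and HRas-KO (0.78), and Ift88 in Control (0.55) and HRas-KO (0.80). Of 19 genes of the Notch pathway, 4, 4, 5 and 8 were called lower in Control, HRas-KO, NRas-KO and DKO, and 1 was higher in DKO. The lower calls among all genes were 5.68%, 5.1%, 3.56% and 6.46%. Notch1 was called lower in all 4 genotypes, by estimates of -0.65, -0.70, -0.78 and -0.82, as was Notch3, by estimates of -0.97, -0.92, -1.16 and -0.69. The Notch list did not follow the ciliated list from lung to lung inside groups (r = 0.01). Scgb1a1, the main secretory product of club cells, was 12.52 to 12.67 in Control and 11.16 to 11.62 in Control+NAC, a difference of -1.25 (limma, adjusted p = 0.00019). The HRas-KO and DKO estimates of -1.23 and -0.56 were also called, and that of -0.68 in NRas-KO was not. Of the 10 club cell genes, Scgb1a1 included, 7 had an estimate above 0 in Control, with a median of 0.13, and 1 was called, lower.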

How the data were processed

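Whole lungs of 28 newborn mice were profiled on 1 array each. The deposited values are log2 expression values, which the authors produced by RMA, with affy also named (per the submitters' processing notes). Versions and filters are not given in the sources used here. This deposited table holds 41345 probe sets: 23521 are annotated with 1 gene symbol, 1814 with several, and 16010 are unnamed here. The brightest single-symbol probe set over all arrays stood for each of 22180 genes. A model of 8 group means with no covariate was fitted in limma 3.58.1 (R 4.3.3), moderated with eBayes, and p-values were adjusted by Benjamini-Hochberg over all genes. The code was tested on simulated data. No member was filtered on low values. The members and gene lists were chosen with earlier results of these data known. In each comparison up to 6 called members with the smallest p, or 3 where none was called, were described with per-array values; further called members were added. At most 3 genes of any other list were named by smallest p, then given in every genotype; Dnah2, Ift57, Ift88 and Scgb1a1 were chosen after their values were seen. Values compare arrays for 1 probe set, never probe sets with each other, and the number of arrays limits precision. Alternatives were no dim genes, repeated quantile normalization, median centring, averaging a gene's probe sets, array weights, blocks for replicate number and code start, the compared arrays alone, a 1.5-fold minimum and leaving out each array. A check for muscle-rich arrays and one for Xist class (log2 above 7) were chosen after seeing the data.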

Additional observations from a re-analysis of the deposited data

Results flagged for a closer look

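Among 108 checks of the 35 members and their list mean in the 3 groups of 4 or 5 arrays, 10 held 1 array far from the others by Dixon's test, where chance gives about 1 in 20. In Control+NAC, Foxj1 was highest in replicate 1 (7.0), Zmynd10 lowest in replicate 2 (6.01), Ccdc113 lowest in replicate 1 (5.53) and Sntn lowest in replicate 4 (6.49). In DKO, Rsph9 was lowest in replicate 1 (6.09), Mlf1 lowest in replicate 1 (5.0) and Ccdc40 highest in replicate 2 (6.98). In DKO+NAC, Foxj1 was lowest in replicate 1 (6.46), Ccdc40 lowest in replicate 1 (6.04) and Hydin highest in replicate 2 (6.33).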

How the results depend on the processing

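No alternative gave a called member in DKO against Control, HRas-KO against Control, NRas-KO against Control, the 3 genotype comparisons within NAC, the DKO difference beyond the sum or the NAC change of the DKO effect. The counts of called members changed elsewhere, and the cause was not tested. In DKO against HRas-KO the count of 0 became 1 without dim genes, after repeated quantile normalization, after median centring and without the muscle-rich arrays, and 4 with array weights; leaving out 1 array gave 0 to 3. In DKO against NRas-KO the count of 1 became 3 without dim genes and with array weights, 2 after quantile normalization and 4 with the Xist class. It became 0 after median centring, with code start as a random block, with the compared arrays alone, beyond 1.5-fold and without the muscle-rich arrays; leaving out 1 array gave 0 to 4. In Control+NAC against Control the count of 3 became 5 after centring, 6 with array weights or the compared arrays alone, 7 without muscle-rich arrays and 0 beyond 1.5-fold; leaving out 1 array gave 0 to 3. In HRas-KO+NAC against HRas-KO, where lower calls prevailed, higher calls prevailed among the 3 after quantile normalization, the 4 after centring and the 6 with array weights. The count was 0 beyond 1.5-fold, 1 with the Xist class and 0 to 1 without 1 array. In NRas-KO+NAC against NRas-KO the count of 4 became 2 after quantile normalization or with code start as a random block, and 1 with the compared arrays alone, beyond 1.5-fold or without muscle-rich arrays; leaving out 1 array gave 0 to 4. In DKO+NAC against DKO the count of 9 became 4 with the compared arrays alone and 1 beyond 1.5-fold. It became 7 with the Xist class, with higher calls prevailing; leaving out 1 array gave 5 to 7.

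Replicate numbers did not pair the arrays: arrays of the same number in different groups correlated at 0.021 on average over 37 pairs, 13 of them above 0.1. Arrays of the same animal code start correlated at 0.15 over 28 pairs, 15 of them above 0.1, against -0.035 for other code starts. With the replicate block, 4 members were called in Control+NAC against Control, 3 in HRas-KO+NAC against HRas-KO, 4 in NRas-KO+NAC against NRas-KO, 7 in DKO+NAC against DKO and 1 in DKO against NRas-KO, and Foxj1 was not called there. Within an animal code start, the median member difference was -0.06 and -0.02 for HRas-KO against Control and 0.04 and 0.06 for NRas-KO against Control. For DKO+NAC against Control+NAC it was -0.03 and -0.17, the latter resting on DKO+NAC replicate 4 against 1 Control+NAC lung.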

Other observations

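Xist, the RNA that silences an X chromosome in female cells, was at 9.92 or above on 14 arrays and at 4.60 or below on the other 14, and all 4 DKO+NAC lungs but none of the 3 HRas-KO+NAC lungs were high. In a fit chosen after seeing the data, with groups and Xist class as terms, 32 of 35 ciliated genes had a lower estimate in the high class, with a median of -0.14 against 0.00 over all genes. No member was called by limma (0.0271% of all genes were), and 15 had an unadjusted p below 0.05, where 11.2% of all genes did. The members move together, so these are not independent observations. The smallest p was that of Zmynd10 (-0.46 ± 0.11, SE; limma, adjusted p = 0.20).

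The ciliated list mean was lower in the Xist-high lungs of each knockout group that held both classes. It was -0.17 and -0.08 in the high HRas-KO lungs against 0.05, and 0.02 and 0.10 in the high NRas-KO lungs against 0.20. In NRas-KO+NAC it was -0.24 in the high lung against 0.05 and -0.03, and in DKO it was -0.25 and -0.27 in the high lungs against 0.19, 0.15 and 0.00. In Control it was 0.08 in the high lung against 0.01 and 0.05, and in Control+NAC 0.08 and 0.12 against 0.06 and 0.08. The classes ran the other way in both Control groups, and whether they differ between genotypes was not tested. With the Xist class in the fit, no member was called in DKO against Control.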
